A study of Mus musculus with 6 samples.

Results

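The 10 genes described here code for the MHC class I antigen presentation machinery, and they were taken by gene symbol from the 16081 genes listed for Lewis mouse lung carcinoma cells. They were H2-K1, H2-D1, B2m, Tap1, Tap2, Tapbp, Psmb8, Psmb9, Psmb10 and Nlrc5, and all 10 were listed and had enough reads to be tested. Lewis cells are a line that arose in a C57BL/6 mouse, and they were kept for 24 h with SD70, an inhibitor of the histone lysine demethylase KDM4C, or with the vehicle DMSO. The comparison asks which genes of the tumor cells change with SD70. No sample had KDM4C knocked down, so effects of KDM4C inhibition and other effects of the compound cannot be told apart. Each group had 3 samples of this 1 line, no genetic change is named in the labels, and the SD70 dose for this experiment is not given in the sources used here. The labels do not say whether the samples of a group were separate cultures, so the p-values measure the spread between these samples only.

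MHC class I molecules show peptides from inside the cell to CD8+ T cells. The immunoproteasome cuts proteins into peptides, the TAP transporter carries these into the endoplasmic reticulum (ER), and tapasin holds the transporter beside empty class I molecules so that a heavy chain and beta-2 microglobulin can take up a peptide. NLRC5 is the transactivator that drives transcription of these genes, interferon-gamma raises most of them, and tumor cells often lose part of the pathway.

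The members did not move as 1 group. Psmb10, an immunoproteasome subunit, rose by 96.0%, Nlrc5 rose by 32.5% and Tapbp, which codes for tapasin, rose by 14.4% in fitted counts with SD70. Tap1, a subunit of the transporter, fell by 22.4% and the heavy chain gene H2-D1 fell by 11.5%. The other 5 members, H2-K1, B2m, Tap2, Psmb8 and Psmb9, did not pass the test. Passing means an adjusted p-value under 0.01 in edgeR's quasi-likelihood test, adjusted over 11552 genes. A gene was called when it also moved by at least 1 on the scale of the log2 fold change (log2FC, SD70 against DMSO, given with its standard error, SE), up or down.

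So 5 of 10 members passed, against 49.9% of all genes tested. Of these, 3 were higher (25.8% of all genes tested passed as higher) and 2 were lower (24.2% as lower). No member was called, whereas 3.29% of all genes tested were called as higher and 2.61% as lower. The count of called members was 0 in edgeR, also with an unadjusted p under 0.05 in place of the adjusted one, and it was 0 with DESeq2 and with limma. In 5 of 10 members every SD70 sample was on the same side of every DMSO sample, against 64.4% of all genes tested. The shares of members that passed or had separate groups were thus near or below the shares over all genes. The median log2FC of the members was -0.03, and over all genes tested it was -0.00, with a median absolute value of 0.25.

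**Figure D1:**
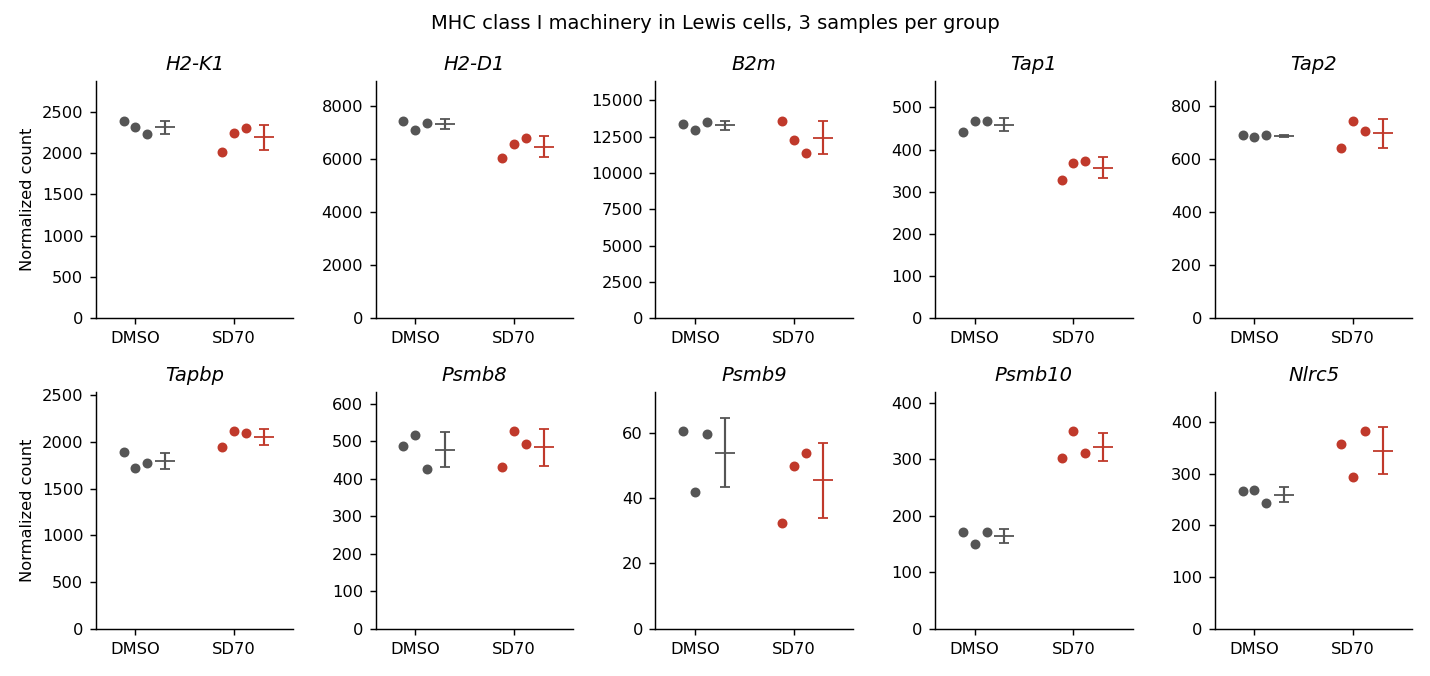
Normalized counts of the 10 members in each of the 3 DMSO (grey) and 3 SD70 (red) samples, with the mean and SD beside the points and every axis starting at 0. Psmb10, Nlrc5 and Tapbp lie higher in all 3 SD70 samples, Tap1 and H2-D1 lie lower in all 3, and the groups overlap in the other 5 genes.

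Totals ran from 15276744 to 17060424 counts per sample, and values below are normalized counts (counts scaled by TMM to the mean effective library size) unless another unit is named. Kdm4c RNA was 753 ± 34.6 (SD, n = 3) with DMSO and 765 ± 34.2 with SD70 (adjusted p = 0.769). An inhibitor of the enzyme need not change this RNA, so it does not check the labels. As to the labelled tissue, lung adenocarcinoma, 9 of 15 markers of lung epithelium were listed. Epcam, Cdh1 and Sftpc had at most 1 count in any sample, Nkx2-1 was not listed, and the summed count of the 9 was 4164 to 4348 with DMSO and 2521 to 3006 with SD70, most of it Krt8. Of the 4 tested, 3 passed as lower, and 2 of these were called, Krt18 (log2FC -1.22, adjusted p = 2.97e-07) and Foxa2 (-1.02, adjusted p = 5.17e-05), against 2.61% of all genes tested. Of 8 mesenchymal markers, all were listed, with a summed count of 90530 to 99935 with DMSO and 66675 to 75112 with SD70, and Cdh2 and Col1a1 were at 0 to 6 counts. Most of this sum was Vim, at 44823 to 73431 counts. Of the 5 tested, 3 passed as lower, Vim among them, and 2 as higher, Pdgfrb (log2FC 1.54, adjusted p = 2.09e-17) and Zeb1 (0.63, adjusted p = 2.11e-12). White blood cells would bring class I RNA of their own, and of 17 immune cell markers 9 were listed and 0 of the 3 tested passed in edgeR (0 with DESeq2, 1 with limma, and 1 at an unadjusted p under 0.05). Their summed count was 100 to 106 with DMSO and 68 to 106 with SD70, Ptprc, which codes for the pan-leukocyte antigen CD45, had 0 counts in each DMSO sample and 1 or 2 in each SD70 sample, and Cd3e, Itgam and Adgre1 were not listed. Most of that sum was Laptm5, at 38 to 78 counts, and Lyz2, at 11 to 26 counts, had a log2FC of 0.79 (adjusted p = 0.0257). The part of such cells in the members' values was not tested. The samples are bulk RNA, so fewer cells with a transcript and less of it per cell cannot be told apart.

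H2-K1 and H2-D1 code for the classical heavy chains H-2K and H-2D of this mouse strain, which hold the peptide. B2m codes for beta-2 microglobulin, the light chain that every class I molecule needs to reach the surface. H2-K1 (NCBI Gene 14972) lies on the minus strand at chr17:33996012-34000619 of GRCm38.p6, H2-D1 (NCBI Gene 14964) on the plus strand at chr17:35263094-35267497, both inside the mouse MHC, and B2m (NCBI Gene 12010) on the plus strand at chr2:122147687-122153082. RefSeq promoters of GRCm38.p6, running from 250 bases before to 50 after the annotated start, were found for 8 of the 10 members (Tap2 and Nlrc5 had no entry). The 3 below are shown because they belong to partners in 1 molecule and can be set beside different values. Capitals mark matches, on either strand, to 5 motifs: GAAANNGAA (core of the interferon-stimulated response element), TTCNNNGAA (STAT site), GGGNNTTCC (NF-kB site), CCAAT or its complement ATTGG (bound by NF-Y), and TGACG or its complement CGTCA (part of a cyclic AMP response element). They are at chr17:34000298-34000597 (minus strand), chr17:35262844-35263143 (plus strand) and chr2:122147437-122147736 (plus strand).
H2-K1: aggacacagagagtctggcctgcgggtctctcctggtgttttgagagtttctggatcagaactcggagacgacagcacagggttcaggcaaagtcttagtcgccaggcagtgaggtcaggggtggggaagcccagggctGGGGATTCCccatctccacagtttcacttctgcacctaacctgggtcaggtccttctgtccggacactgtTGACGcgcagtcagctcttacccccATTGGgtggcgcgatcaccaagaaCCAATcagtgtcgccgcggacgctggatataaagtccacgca
H2-D1: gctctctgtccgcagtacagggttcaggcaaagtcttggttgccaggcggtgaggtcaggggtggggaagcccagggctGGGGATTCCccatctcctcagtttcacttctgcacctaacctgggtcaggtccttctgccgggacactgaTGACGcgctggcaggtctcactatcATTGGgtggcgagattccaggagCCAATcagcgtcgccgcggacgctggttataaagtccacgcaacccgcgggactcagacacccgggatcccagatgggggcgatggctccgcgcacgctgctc
B2m: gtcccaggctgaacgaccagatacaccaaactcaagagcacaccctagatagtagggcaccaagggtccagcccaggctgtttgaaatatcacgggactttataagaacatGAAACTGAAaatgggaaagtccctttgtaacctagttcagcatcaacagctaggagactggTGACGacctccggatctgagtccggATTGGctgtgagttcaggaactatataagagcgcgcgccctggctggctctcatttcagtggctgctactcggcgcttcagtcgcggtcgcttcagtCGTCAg

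The H2-K1 and H2-D1 promoters were 88.3% identical (211 of 239 aligned bases), against 57.7% to 70.5% between the other pairs of member promoters, each read in its gene's own direction. Read this way Tap1 and Psmb9 were 61.8% identical, although their windows lie on opposite strands of nearly the same stretch. H2-K1 and H2-D1 held the same NF-kB match, GGGGATTCC, at base 140 of the H2-K1 window and base 80 of the H2-D1 window. After it, these 2 windows had 2 CCAAT matches and 1 TGACG match in the same order. B2m held GAAACTGAA at base 112, and it was the 1 member promoter with a match to GAAANNGAA. Other forms of the interferon element were not searched, so a window without these letters may still hold one. The NF-kB letters occur in 5.72% of 27025 RefSeq promoters of this length, the interferon element in 8.57%, CCAAT in 37.9% and TGACG in 21.0%. Among the 9284 promoters of genes tested here, these shares were 7.48%, 6.90%, 40.1% and 32.7%. A match describes letters only and is not a measured binding site. No motif overlapped another in these windows.

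H2-D1 had 7458, 7100 and 7382 normalized counts with DMSO and 6042, 6592 and 6792 with SD70. Every SD70 sample lay below every DMSO sample, SD70 sample 1 being the lowest. The mean went from 7314 ± 189 to 6475 ± 388 (SD, n = 3 each), with a log2FC of -0.18 (SE 0.0506, adjusted p = 0.00321). It no longer passed without DMSO sample 1 (log2FC -0.16, adjusted p = 0.0145), DMSO sample 3 (-0.18, adjusted p = 0.0124) or SD70 sample 1 (-0.13, adjusted p = 0.0307). Without either of these DMSO samples the change was about as large.

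H2-K1 had 2391, 2308 and 2234 normalized counts with DMSO and 2015, 2243 and 2306 with SD70. SD70 samples 2 and 3 lay within the range of the DMSO samples and only sample 1 lay below it. The log2FC was -0.08 (SE 0.0547, adjusted p = 0.214), which did not pass. It was -0.02 without SD70 sample 1 and -0.12 without SD70 sample 3. The promoters of H2-K1 and H2-D1 share the motifs above, and the difference between their 2 changes was looked at through their ratio.

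B2m had 13386, 12959 and 13530 normalized counts with DMSO and 13612, 12288 and 11344 with SD70. The SD70 samples spread on both sides of the DMSO samples, with an SD of 1140 against 297. The log2FC was -0.10 (SE 0.0538, adjusted p = 0.114), which did not pass. Without SD70 sample 1 it was -0.17 and passed (adjusted p = 0.00636), and without SD70 sample 3 it was -0.04 (adjusted p = 0.505). H2-D1 and H2-K1 were lowest in the same SD70 sample in which B2m was highest.

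Heavy chain genes are a family of close copies, and how reads shared between copies were counted is not stated. The H2-D1 count of DMSO sample 2, 7310.84, was the 1 count among these 3 genes that was not whole. The values of single heavy chain genes are therefore uncertain where the sequences are alike.

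Tap1 and Tap2 code for the subunits of the peptide transporter, and tapasin, the product of Tapbp, joins it to the heavy chain. All 3 lie on the plus strand of the MHC. Tap1 (NCBI Gene 21354) is at chr17:34187556-34197225 of GRCm38.p6, Tap2 (NCBI Gene 21355) at chr17:34204479-34216321 and Tapbp (NCBI Gene 21356) at chr17:33919478-33929290. The Tap1 promoter (RefSeq, GRCm38.p6, chr17:34187306-34187605, plus strand) is shown because Psmb9 is read from the same stretch in the other direction. The Tap1 and Psmb9 windows share 275 genomic bases and so hold the same CCAAT match and the same TGACG match, in capitals.
Tap1: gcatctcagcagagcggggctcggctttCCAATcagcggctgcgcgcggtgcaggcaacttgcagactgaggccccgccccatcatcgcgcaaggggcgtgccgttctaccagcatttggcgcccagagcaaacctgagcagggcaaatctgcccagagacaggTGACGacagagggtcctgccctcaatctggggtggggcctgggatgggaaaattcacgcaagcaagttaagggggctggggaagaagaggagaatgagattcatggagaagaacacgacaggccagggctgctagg

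Tap1 had 442, 467 and 469 normalized counts with DMSO and 328, 368 and 374 with SD70, so that the groups did not overlap. The mean fell from 460 ± 14.8 to 357 ± 25.2 (SD, n = 3 each), a log2FC of -0.37 (SE 0.0775, adjusted p = 0.000126). It passed under all 14 alternative settings tried, with log2FCs from -0.41 to -0.31.

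Tap2 had 689, 682 and 690 normalized counts with DMSO and 639, 744 and 703 with SD70. The SD70 samples lay on both sides of the narrow DMSO range. Its log2FC was 0.02 (SE 0.0666, adjusted p = 0.829), and the sign turned with the scaling, to -0.02 with library totals alone. The ratio of Tap1 to Tap2 in FPKM, a level per transcript length and library size, was 0.535, 0.573 and 0.568 with DMSO and 0.429, 0.414 and 0.444 with SD70. All 3 SD70 ratios lay below the DMSO ratios, and the mean log2 ratio was lower by 0.38, or 0.768-fold (p = 0.1 in a two-sided exact permutation test, which cannot go lower with 3 against 3 samples, and 0.267 adjusted over the 8 ratios tested).

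Tapbp had 1890, 1723 and 1770 normalized counts with DMSO and 1950, 2113 and 2095 with SD70. The lowest SD70 sample was above the highest DMSO sample by a small margin, and the log2FC was 0.19 (SE 0.0543, adjusted p = 0.00253). It no longer passed in 7 of the 14 alternatives, with adjusted p-values between 0.0133 and 0.0433, while its log2FC there was 0.15 to 0.18. The direction was the same in all 14. In GENCODE M21, Tapbp shares 149 exonic bases with Zbtb22 on the same strand, where strand cannot separate the reads. Tapbp also shares 904 with an antisense gene that was not listed, Gm19412. Reads from that stretch cannot be assigned with certainty because the strand setting of the counting is not stated. The same holds for antisense genes, none of them listed, that share 533 and 165 exonic bases with Tap2, 498 with Psmb8 and 78 with Nlrc5.

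The immunoproteasome replaces the catalytic subunits of the constitutive proteasome, with Psmb8 taking the place of Psmb5, Psmb9 that of Psmb6 and Psmb10 that of Psmb7. Psmb8 (NCBI Gene 16913, chr17:34198195-34201454, plus strand) and Psmb9 (NCBI Gene 16912, chr17:34182030-34187330, minus strand) flank Tap1 in the MHC. Psmb10 (NCBI Gene 19171) lies outside it, at chr8:105935728-105938392 on the minus strand. Its promoter (RefSeq, GRCm38.p6, chr8:105938343-105938642, minus strand) is shown because Psmb10 had the largest change among the members. None of the 5 motifs was found in it, so it has no capitals, and this says only that these letters are not in this window.
Psmb10: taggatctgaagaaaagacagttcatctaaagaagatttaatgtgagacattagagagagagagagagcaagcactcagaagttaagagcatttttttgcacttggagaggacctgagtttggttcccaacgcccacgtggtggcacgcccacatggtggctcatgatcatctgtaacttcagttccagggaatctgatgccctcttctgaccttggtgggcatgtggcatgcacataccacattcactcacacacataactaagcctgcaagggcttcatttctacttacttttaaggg

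Psmb10 had 171, 151 and 172 normalized counts with DMSO and 303, 350 and 312 with SD70. The lowest SD70 sample was far above the highest DMSO sample. The mean rose from 164 ± 11.9 to 322 ± 24.5 (SD, n = 3 each), a log2FC of 0.97 (SE 0.0974, adjusted p = 1.51e-10). It passed in all 14 alternatives, with log2FCs from 0.89 to 1.01, and it reached 1 only without SD70 sample 1. Among all genes tested, Psmb10 ranked 426 by log2FC, and 6.67% had a larger absolute change.

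Psmb8 had 489, 517 and 427 normalized counts with DMSO and 431, 527 and 494 with SD70. The groups overlapped over most of their range, and the log2FC of 0.02 (SE 0.0815, adjusted p = 0.843) turned to -0.02 with library totals alone. The Psmb8 promoter held the STAT letters TTCCCAGAA, 97 bases before the start, and TTCNNNGAA occurs in 8.47% of RefSeq promoters and in 6.83% of those of genes tested. Psmb9 was the member with the fewest reads, with 60.4, 41.8 and 59.5 normalized counts with DMSO and 32.5, 49.7 and 53.9 with SD70. Its groups overlapped and the spread was wide (CV of 19.5% and 25.0%). Its log2FC was -0.25 (SE 0.202, adjusted p = 0.287), and it ran from -0.06 without SD70 sample 1 to -0.42 without DMSO sample 2.

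Tap1 and Psmb9 lie head to head on opposite strands. In GENCODE M21 they share 212 exonic bases, whereas their RefSeq coordinates given above do not overlap. Which gene models were used for counting is not settled here. If those models overlap, reads from the shared stretch cannot be told apart without a stated strand setting. The ratio of Tap1 to Psmb9 was 1.80, 2.66 and 1.92 with DMSO and 2.48, 1.80 and 1.69 with SD70, which overlapped (two-sided exact permutation test, p = 0.6, 0.914 adjusted).

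Each immunoproteasome subunit was also set against its constitutive partner within a sample. The ratio of Psmb10 to Psmb7 was 0.0450, 0.0357 and 0.0430 with DMSO and 0.0784, 0.0849 and 0.0802 with SD70. The groups were separate, and the ratio was 1.98-fold higher with SD70 (two-sided exact permutation test, p = 0.1, 0.267 adjusted). Psmb7 itself had a log2FC of 0.00 (SE 0.0531, adjusted p = 0.978). The ratio of Psmb8 to Psmb5 averaged 0.270 ± 0.0390 (SD, n = 3) with DMSO and 0.264 ± 0.00997 with SD70 (two-sided exact permutation test, p = 0.8). The ratio of Psmb9 to Psmb6 averaged 0.0540 ± 0.0110 and 0.0414 ± 0.00987 (SD, n = 3 each, exact permutation test, p = 0.3). Both overlapped between the groups.

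**Figure D2:**
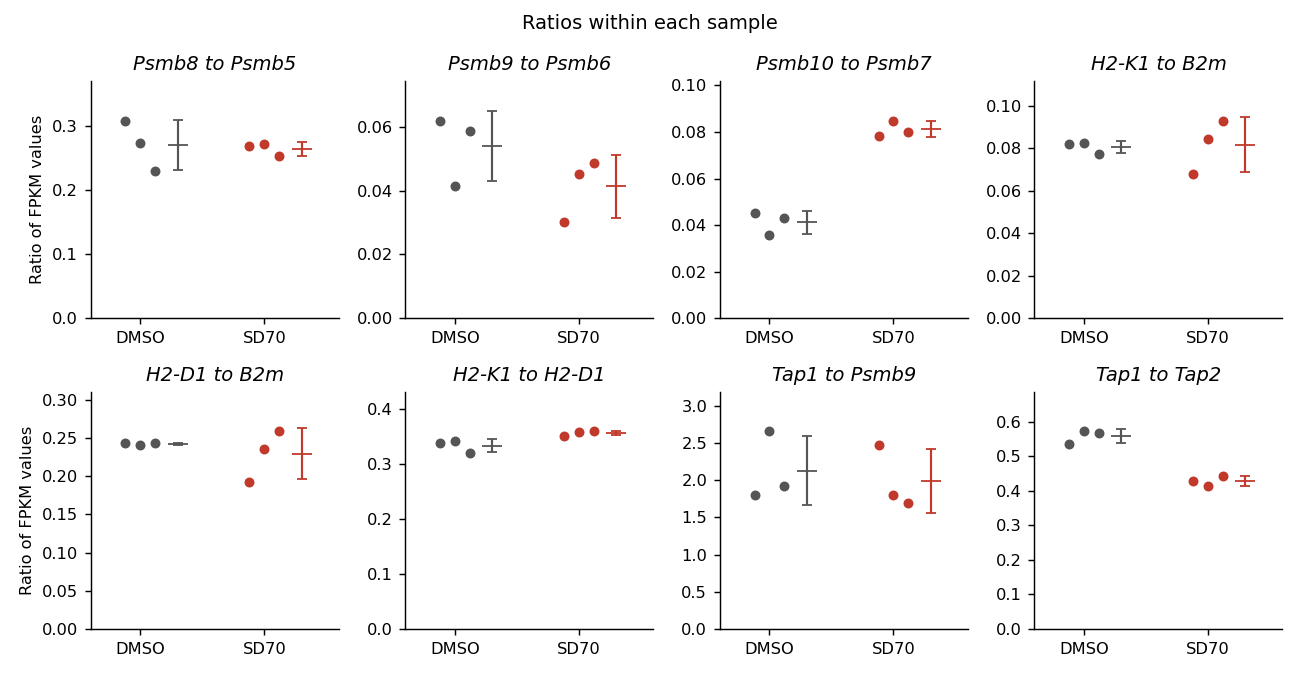
Ratios of FPKM values within each sample for the 8 pairs of partner genes, DMSO in grey and SD70 in red, with mean and SD beside the points and axes starting at 0. The groups are separate for Psmb10 to Psmb7, Tap1 to Tap2 and H2-K1 to H2-D1, and they overlap for the other 5 pairs.

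Within the class I molecule, the ratio of H2-K1 to H2-D1 was 0.338, 0.342 and 0.319 with DMSO and 0.351, 0.358 and 0.359 with SD70. These did not overlap, and the difference was 1.07-fold (two-sided exact permutation test, p = 0.1, 0.267 adjusted). Against the light chain, H2-D1 to B2m was 0.243, 0.241 and 0.243 with DMSO and 0.193, 0.236 and 0.259 with SD70. The 3 DMSO ratios were nearly equal whereas the SD70 ratios spread around them, and they overlapped (exact permutation test, p = 0.7, 0.914 adjusted). The ratio of H2-K1 to B2m averaged 0.0806 ± 0.00275 (SD, n = 3) with DMSO and 0.0818 ± 0.0128 with SD70 (two-sided exact permutation test, p = 1.0).

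Nlrc5 (NCBI Gene 434341) lies at chr8:94434335-94527272 on the plus strand and codes for the transactivator of class I genes. It had 267, 269 and 243 normalized counts with DMSO and 358, 294 and 382 with SD70. The groups did not overlap, though SD70 sample 2 was close to the DMSO range. The mean rose from 260 ± 14.7 to 345 ± 45.5 (SD, n = 3 each), a log2FC of 0.41 (SE 0.0928, adjusted p = 0.000317). With limma on log2(FPKM + 1) it was 0.25 and no longer passed (adjusted p = 0.0336), nor did it with a pseudocount of 0.1 (0.33, adjusted p = 0.0383). Of the other 9 members, Psmb10 and Tapbp also passed as higher, Tap1 and H2-D1 passed as lower and 5 did not pass.

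**Figure D3:**
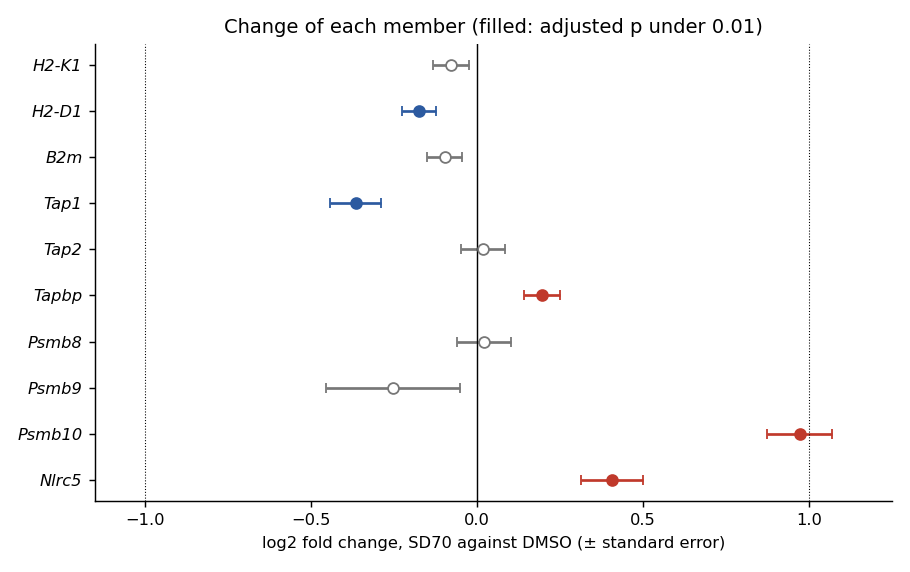
Log2 fold change of each member, SD70 against DMSO, with its standard error, filled where the adjusted p was under 0.01 (red higher, blue lower) and with dotted lines at 1 in both directions. Psmb10 at 0.97 lies farthest from 0, Tap1 at -0.37 is the lowest, and the signs of Tap2 and Psmb8, both at 0.02, turned with library totals alone.

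Levels were compared between genes per transcript length, as FPKM. With DMSO they spanned from 1180 ± 23.5 FPKM for B2m to 2.20 ± 0.115 for Nlrc5 (SD, n = 3 each). Between these came H2-D1 at 285 ± 7.07 FPKM and H2-K1 at 95.0 ± 3.82, then Tapbp at 42.5 ± 2.08, Psmb8 at 27.7 ± 2.95 and Tap2 at 18.1 ± 0.0929. Tap1 at 9.74 to 10.3 FPKM, Psmb10 at 8.82 ± 0.570 and Psmb9 at 4.88 ± 0.870 followed. No 2 neighbours in this order overlapped in their sample ranges. The class I chains were thus the most abundant RNAs of the set, and the transactivator the least.

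With SD70 the order was the same except that Psmb10 passed Tap1. Psmb10 was at 17.2 ± 1.35 FPKM, within the range of Tap2 at 17.9 ± 1.37, and Tap1 was at 7.69 ± 0.549 (SD, n = 3 each). B2m was at 1090 ± 95.7 FPKM, H2-D1 at 248 ± 15.4, H2-K1 at 88.2 ± 6.54, Tapbp at 47.6 ± 2.14 and Psmb8 at 27.6 ± 2.75. Psmb9 at 4.01 ± 1.02 FPKM and Nlrc5 at 2.81 ± 0.398 overlapped at the lower end. Tap2 and Psmb10, and Psmb9 and Nlrc5, were the pairs of neighbours that did not differ beyond their spread.

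**Figure D4:**
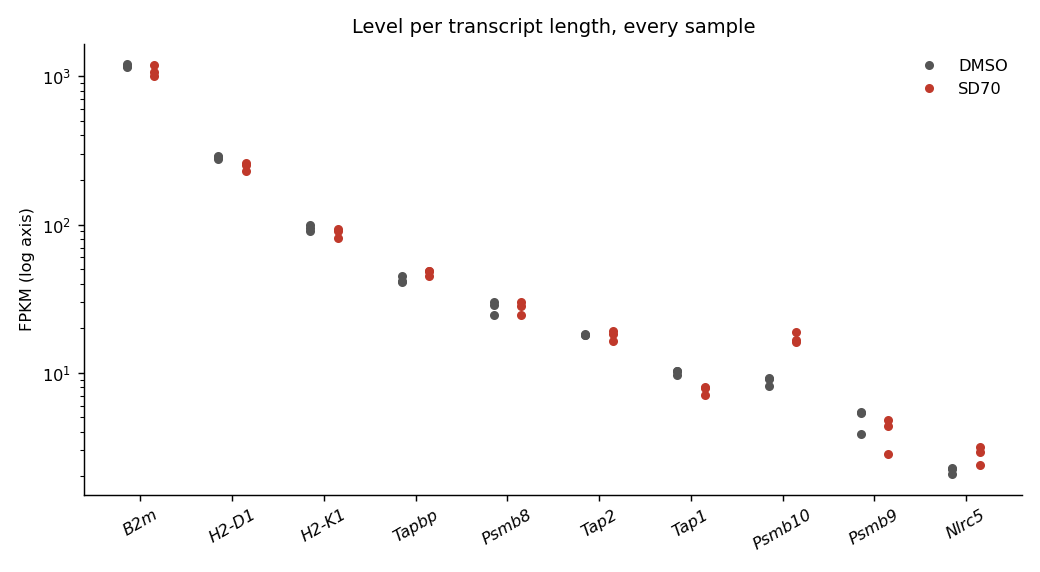
FPKM of each member in every sample on a log axis, DMSO in grey and SD70 in red, in the order of the DMSO levels. B2m is near 1180 FPKM and Nlrc5 near 2.20 FPKM with DMSO, and Psmb10 moves from 8.82 to 17.2 FPKM, up to the level of Tap2.

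The other genes of the pathway were taken from 8 lists. Over these lists 80 genes were tested, 19 passed as higher and 17 as lower, and the median log2FC was 0.01. This share of passing genes was close to that over all genes tested given above. Each list is described by its counts and median without a test of the list.

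The other heavy chain genes of the MHC are mostly nonclassical, with few alleles and special ligands. Of 26 on the list, 16 were listed and 9 tested, 0 passed as higher and 2 as lower, with a median log2FC of -0.06. The count of 0 was also 0 with DESeq2 and limma, and at an unadjusted p under 0.05 edgeR gave 1. H2-T23, which codes for Qa-1, the heavy chain that presents leader peptides of other class I molecules to NK cell receptors, had 177, 142 and 171 normalized counts with DMSO and 81.2, 93.3 and 86.9 with SD70. The groups were far apart, with a log2FC of -0.90 (SE 0.129, adjusted p = 2.51e-07). H2-T22, a ligand of gamma-delta T cells, fell from 804 ± 15.8 to 680 ± 41.7 (SD, n = 3 each, log2FC -0.24, adjusted p = 0.00155). The caution on close copies holds here too.

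Of 7 class I-like genes outside the MHC, 5 were listed and tested, and 4 passed as lower and 0 as higher (24.2% and 25.8% of all genes tested), with a median log2FC of -0.38 against -0.00 over all genes tested. The count of 0 higher was also 0 with DESeq2, with limma and at an unadjusted p under 0.05, and DESeq2 passed 2 as lower. Cd1d1, which presents lipids to NKT cells, had 43.9, 49.5 and 62.3 normalized counts with DMSO and 32.5, 34.8 and 28.6 with SD70, with no overlap (log2FC -0.70, adjusted p = 0.00400), and Procr, the endothelial protein C receptor, went from 398 ± 34.3 to 281 ± 9.49 (-0.50, adjusted p = 4.10e-06). Fcgrt, the neonatal Fc receptor, had a log2FC of -0.38 (adjusted p = 0.00369), and Mr1, which presents vitamin metabolites to MAIT cells, of -0.37 (adjusted p = 0.000221). Hfe, the other tested gene of this list, did not pass (log2FC 0.05, adjusted p = 0.793), and its groups overlapped. Fcgrt and the proteins of Cd1d1 and Mr1 pair with beta-2 microglobulin, as the heavy chains do, and Procr does not.

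NKG2D ligands, class I-like molecules that stressed or transformed cells show to NK cells, did not pass in either direction. Of 8, 5 were listed and 4 tested, with a median log2FC of -0.14. The count was 0 in the main edgeR test, in DESeq2 and in limma, and at an unadjusted p under 0.05 edgeR gave 0 higher and 2 lower. With library totals alone, either other filter, the replicate number as a block or SD70 sample 1 left out, edgeR passed 1 as lower. H60c had a log2FC of -0.54 (adjusted p = 0.0261) and Ulbp1 of -0.17 (adjusted p = 0.0147).

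Among the constitutive catalytic subunits and proteasome activators, 8 of 10 genes were tested, 3 passed as higher and 2 as lower, with a median log2FC of 0.07. Psme3, which codes for the nuclear activator REG-gamma, rose from 3262 ± 139 to 4366 ± 85.7 (SD, n = 3 each, log2FC 0.42, adjusted p = 5.72e-09). Psme2, a subunit of the interferon-induced activator, had 1271, 1344 and 1308 normalized counts with DMSO and 1568, 1614 and 1457 with SD70, which did not overlap (0.24, adjusted p = 0.000349). Psme1, its partner, had a log2FC of 0.21 (adjusted p = 0.00557). Pomp, the assembly factor that builds new proteasomes, fell by 14.8% (adjusted p = 0.000909), and Psme4, a further activator, fell by 13.5% (adjusted p = 0.000408). Psmb5, Psmb6 and Psmb7 did not pass.

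Of 6 cytosolic peptidases, which trim or destroy peptides before transport, 1 passed as higher and 1 as lower, and the median log2FC was 0.04. Npepps, the puromycin-sensitive aminopeptidase, had 4324, 4035 and 4053 normalized counts with DMSO and 2714, 2639 and 2480 with SD70. The groups were far apart (log2FC -0.66, SE 0.0512, adjusted p = 2.42e-13). Nln, neurolysin, had a log2FC of 0.16 (adjusted p = 0.00612).

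Of the genes for peptide loading and heavy chain folding in the ER, all 13 were tested, and 5 passed as higher and 1 as lower (25.8% and 24.2% of all genes tested). By sign alone 7 were higher and 6 lower, with a median log2FC of 0.07. Tapbpl, which codes for TAPBPR, a relative of tapasin that edits peptides outside the loading complex, had 49.7, 46.6 and 63.3 normalized counts with DMSO and 96.4, 93.3 and 114 with SD70. Its log2FC was 0.92 (SE 0.160, adjusted p = 6.97e-06), with no overlap. Erap1, the ER aminopeptidase that trims peptides to the length that fits class I, rose from 552 ± 31.1 to 859 ± 45.0 (SD, n = 3 each, log2FC 0.64, adjusted p = 3.71e-10). Bcap29, a sorting protein of the ER membrane, and Hspa5, which codes for the chaperone BiP, had log2FCs of 0.41 (adjusted p = 5.98e-08) and 0.35 (adjusted p = 7.38e-08). The 1 gene that passed as lower was Lnpep, an aminopeptidase of endosomes, with a log2FC of -0.33 (adjusted p = 1.88e-05). Calr, Canx and Pdia3, the chaperones of the loading complex, did not pass.

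**Figure D5:**
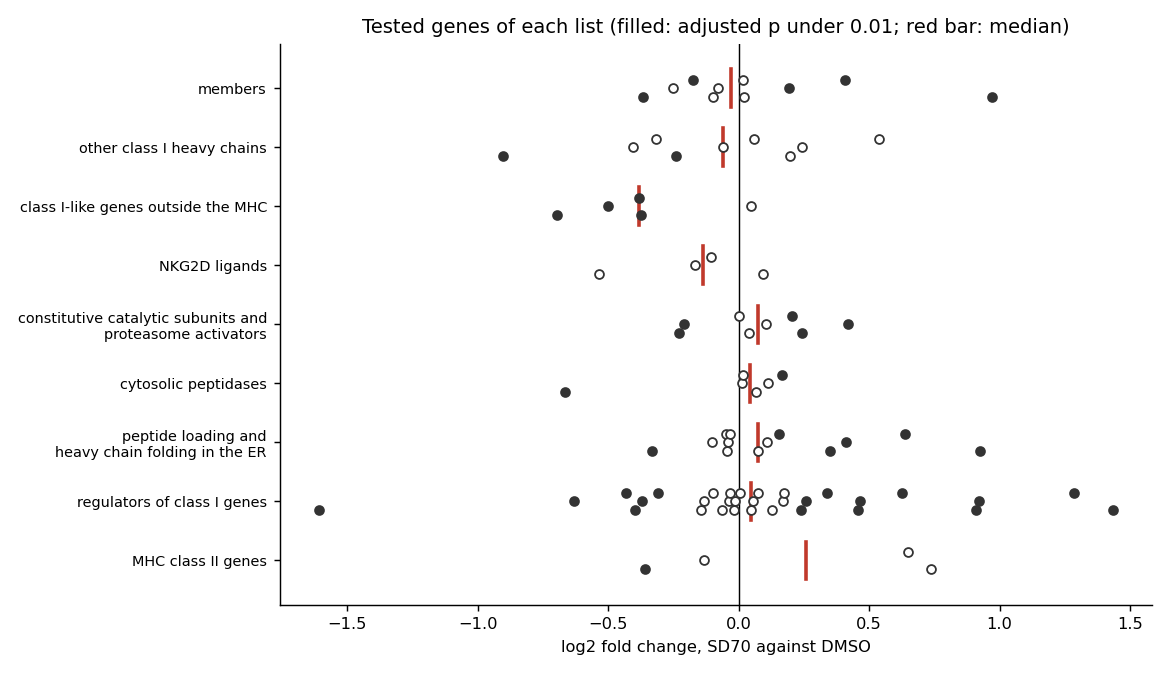
Log2 fold change of every tested gene in the members and the 8 pathway lists, SD70 against DMSO, filled where the adjusted p was under 0.01, with the list's median as a red bar. The class I-like genes outside the MHC have a median of -0.38, and the regulators run from -1.61 to 1.43.

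Of 32 regulators of class I genes, 31 were tested, and 10 passed as higher and 6 as lower (25.8% and 24.2% of all genes tested). As for calls, 2 were higher and 1 was lower (3.29% and 2.61% of all genes tested), and the median log2FC was 0.05. Irf1, an interferon-induced activator of class I promoters, had 298, 274 and 278 normalized counts with DMSO and 700, 742 and 629 with SD70. Its log2FC was 1.29 (SE 0.0780, adjusted p = 4.38e-16). Relb and Nfkb2, the subunits of the noncanonical NF-kB dimer, rose from 381 ± 33.0 to 1029 ± 91.9 (1.43, adjusted p = 1.64e-17) and from 2270 ± 76.4 to 4295 ± 342 (0.92, adjusted p = 2.61e-16). The rise was not particular to this pair. The other NF-kB subunits on the list, Nfkb1 (0.91, adjusted p = 1.26e-16) and Rela (0.46, adjusted p = 2.95e-09), passed as higher too. Irf8, known from myeloid cells and B cells, had 377, 341 and 324 normalized counts with DMSO and 109, 134 and 97.9 with SD70, a log2FC of -1.61 (SE 0.109, adjusted p = 8.88e-15).

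MHC class II genes present peptides from outside the cell and belong to professional presenting cells. Of 12, 7 were listed and 4 tested, 0 passed as higher and 1 as lower. The count of 0 was also 0 with DESeq2, and it was 1 with limma and 1 at an unadjusted p under 0.05. The median log2FC was 0.26, over 4 values on both sides of 0. H2-DMb1, a subunit of the class II peptide editor, fell from 382 ± 11.4 to 298 ± 27.7 (SD, n = 3 each, log2FC -0.36, adjusted p = 0.000406). H2-Aa and H2-Ab1, the chains of the class II molecule, had at most 1 count in any sample.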

How the data were processed

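RNA was taken from Lewis cells after 24 h with DMSO or SD70, 3 samples each, grouped by the treatment in the labels. Poly(A) RNA was sequenced on the BGISEQ-500 platform. The authors aligned reads to GRCm38.p6 with HISAT per the study's methods, while the submitters' processing notes list StringTie 1.3.3b and the build mm8, and 15978 of the 16081 deposited gene IDs are in the RefSeq table of GRCm38.p6. The extraction protocol in the labels speaks of tissue, although the samples are cells. The authors deposited an expected count, not normalized and not whole in 8.84% to 9.28% of values, and an expression value read here as FPKM, since the library sizes it implies were close to the total counts in every sample.

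Expected counts were rounded, filtered by filterByExpr, scaled by TMM (factors 0.984 to 1.02) and tested with edgeR 4.0.16 (glmQLFit, robust, and glmQLFTest, R 4.3.3) over 11552 genes with Benjamini-Hochberg adjustment. Standard errors come from the quasi-likelihood F statistic. Ratios of FPKM were compared by exact permutation tests, adjusted over 8 ratios. The tests were tested on simulated data. In simulated counts edgeR passed 53.7% of genes with an absolute log2FC of 0.3, 78.8% with 0.5 and 95.5% with 1. A gene that did not pass may therefore still have a small change. Samples of a group differed by more than sampling noise (chi-square per gene 2.12 to 4.97), so none is a library deposited again, and each was counted as a sample. Whether they are separate cultures is not shown by this. With 3 samples per group, spread between samples and, for genes with few reads, counting error limit precision. Reads have no molecular identifiers.

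The members and lists were chosen with earlier results of these data known. Named genes are the members, their ratio partners, Kdm4c, and per list up to 4 passing genes with the largest absolute change (2 where none passed). Psme1, Lnpep, Calr, Canx, Pdia3, Hfe, Nfkb1, Rela and the genes of the closing section were named after their values were seen. Genes of the marker lists, H2-Aa and H2-Ab1 were named to state presence or absence, or likewise after their values were seen. Alternatives were DESeq2 size factors, library totals, 2 filters (at least 1 count in any sample, at least 10 in every sample), the Wald test of DESeq2 1.42.0, limma 3.58.1 on log2(FPKM + 1) and log2(FPKM + 0.1), the replicate number as a block and leaving out each sample. Motifs were searched in RefSeq promoters of GRCm38.p6, and overlaps of genes were read from GENCODE M21.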

Additional observations from a re-analysis of the deposited data

How the results depend on the processing

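Psmb10 and Tap1 passed under all 14 alternatives, and the signs of Tap2 and Psmb8 turned in 4 and 5 of them. For Tap2 the log2 fold change was -0.0199 with library totals alone, -0.0152 with limma on log2(FPKM + 1) and -0.0161 with a pseudocount of 0.1, and it ran from -0.0326 to 0.0772 when 1 sample was left out. For Psmb8 it was -0.0178, -0.0039 and -0.0040 in the same 3 settings and from -0.0625 to 0.0996 when 1 sample was left out. With either pseudocount limma passed 1 member as higher, in place of 3. With library totals alone 0 cytosolic peptidases passed as higher and 1 NKG2D ligand as lower, and a filter of 10 counts gave the same numbers. With all genes of at least 1 count, 1 other heavy chain passed as higher and 1 NKG2D ligand as lower. DESeq2 passed 2 class I-like genes outside the MHC as lower. Limma passed 0 cytosolic peptidases and 1 MHC class II gene as higher with either pseudocount, and 2 MHC class II genes as lower with a pseudocount of 1, under which 202 of all genes were called as higher and 81 as lower. The cause was not tested.

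Leaving out 1 sample gave 1 to 2 members that passed as lower (1 without DMSO sample 1 or 3) and 0 to 1 called as higher (1 without SD70 sample 1, Psmb10). Among the lists it gave 0 to 1 other heavy chains as higher (1 without DMSO sample 1 or SD70 sample 2) and 1 to 2 as lower (1 without SD70 sample 1), 2 to 4 class I-like genes outside the MHC as lower (2 without SD70 sample 1), 0 to 1 NKG2D ligands as lower (1 without SD70 sample 1), 1 to 2 constitutive subunits and activators as lower (1 without SD70 sample 3), 0 to 1 cytosolic peptidases as higher (1 only without SD70 sample 2) and 1 to 2 MHC class II genes as lower (2 without DMSO sample 2 or SD70 sample 2). The log2 ratio ran from -0.1367 to 0.0735 for Psmb8 to Psmb5, from -0.0908 to 0.1375 for H2-K1 to B2m, from -0.1812 to 0.0309 for H2-D1 to B2m from -0.2608 to 0.0804 for Tap1 to Psmb9 and from -0.5714 to -0.1784 for Psmb9 to Psmb6 (the last without SD70 sample 1).

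The labels number the samples 1 to 3 in both groups. Across all 11552 genes, the deviations of same-numbered samples correlated with Pearson's r of -0.108, 0.0356 and 0.122. Among genes with a mean count of at least 50 r was 0.116, 0.186 and 0.148, and of at least 100 it was 0.181, 0.283 and 0.172, but at 200 it was 0.153, -0.0307 and -0.0232. Spearman's rho was under 0.1 for numbers 2 and 3 at every minimum. For number 1 rho was positive at every minimum, from 0.122 with all genes to 0.173 at a minimum of 500. Neither the labels nor the data settle whether the numbers pair the samples, and no pairing was used in the main test. With the replicate number as a block in edgeR, 3 members passed as higher and 2 as lower, as without it, 1 other heavy chain passed as higher, 1 NKG2D ligand passed as lower, and 387 of all genes were called as higher and 305 as lower. It changed no other count of the lists by over 1.5 times. Psmb9 had the fewest reads of the members, 32 to 62 counts per sample.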

Other observations

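The class I promoter is bound by a complex of RFX, NF-Y and CREB or ATF proteins that NLRC5 needs to act. Of 8 subunits, named after their values were seen, 2 passed as higher and 1 as lower, against 49.9% of all genes tested that passed in either direction. Of the RFX subunits, Rfxap fell from 269 ± 8.31 to 174 ± 9.38 normalized counts (SD, n = 3 each, log2FC -0.63, SE 0.0973, adjusted p = 1.06e-06), and all 3 SD70 samples, from 163 to 181, lay below the DMSO samples, from 261 to 278. Rfx5 and Rfxank had log2FCs of 0.00 (adjusted p = 0.972) and 0.06 (adjusted p = 0.609). Of the NF-Y subunits, Nfyc rose from 718 ± 63.9 to 1110 ± 8.54 (SD, n = 3 each, log2FC 0.63, adjusted p = 1.79e-10), while Nfya at -0.07 and Nfyb at 0.08 did not pass. Atf1 had 1136, 1059 and 1108 normalized counts with DMSO and 1516, 1450 and 1591 with SD70 (log2FC 0.46, adjusted p = 1.14e-08), and Creb1 at 0.05 did not pass.

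On the interferon route to these genes, which runs from receptors through JAK kinases to STAT proteins, some genes passed as higher and others as lower. Ifngr1, a chain of the interferon-gamma receptor, had 375, 354 and 348 normalized counts with DMSO and 422, 441 and 407 with SD70 (log2FC 0.24, adjusted p = 0.00798). Jak1 fell by 19.2% (adjusted p = 1.25e-06), Stat2 fell by 22.6% (adjusted p = 9.28e-05) and Socs1, a feedback inhibitor of JAK kinases that interferon induces, fell by 25.9% (adjusted p = 0.00576). Ezh2, Eed and Suz12, the core of the repressive complex PRC2, did not pass (adjusted p = 0.193, 0.097 and 0.523).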
